A study of Homo sapiens with 36 samples.

Results

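The high mobility group (HMG) genes described here are HMGB1, HMGB2, HMGB3, HMGN1, HMGN2, HMGN3, HMGN4, HMGN5 and HMGA1. They were chosen by name in a list that records no measured value, after mapping Ensembl identifiers to GENCODE release 29 symbols, and make up 9 of the 58219 genes in the RNA data and 9 of the 43582 genes in the footprint data. All 9 were present at every time point in both assays. That list was drawn up with earlier results of these data known, so fold changes and p-values of its members are given as descriptions. The same annotation holds 153 pseudogenes named after these genes, and all 153 have rows of their own in the RNA data and none in the footprint data.

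The cells were WiT49, an established line from an anaplastic Wilms tumor, a childhood kidney cancer. Actinomycin D (actD), which binds DNA and blocks transcription, was given at 2 nM, and control cells received its solvent DMSO. Treatment lasted 6 h, 72 h, or 2 weeks made of 2 cycles of 7 days with 3 days of drug or solvent and 4 days of plain medium. For each treatment and time there were 3 libraries of total RNA and 3 of ribosome footprints, the mRNA fragments shielded by ribosomes, which makes 12 groups and 36 libraries. All groups are the same line, with no genetic change named. For each 2-week RNA library the title states the reverse of the treatment in the library name. Those groups carry their library names here, as "named actd" and "named dmso", and if the titles are right every 2-week RNA difference below has the opposite sign.

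HMG proteins are abundant non-histone proteins of chromatin and fall into 3 families. HMGB proteins carry HMG boxes that bend DNA, HMGN proteins bind nucleosomes and counteract compaction by linker histone H1, and HMGA proteins hold AT-hooks that bind the minor groove of AT-rich DNA. HMGB1 is also known outside the cell, where it acts as a signal of damage. Many HMG messengers have been copied back into the genome as processed pseudogenes, so reads of an HMG gene can match other places.

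To show how near these copies are, the first 60 coding bases of 3 members are given 5′ to 3′ beside related copies, from GENCODE release 29 transcripts on GRCh38. Capitals mark bases that differ from the member named at the head of each set. HMGB1 lies at chr13:30456704-30617597 on the minus strand. HMGB1P5 (chr3:22381819-22382929, plus strand) held the most RNA counts of all HMGB1 pseudogenes over the 18 RNA libraries, 74803, and HMGB1P10 (chr22:26560526-26561088, plus strand) was the third.

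HMGB1: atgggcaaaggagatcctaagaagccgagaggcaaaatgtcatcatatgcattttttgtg
HMGB1P5: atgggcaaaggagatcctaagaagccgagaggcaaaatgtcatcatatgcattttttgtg
HMGB1P10: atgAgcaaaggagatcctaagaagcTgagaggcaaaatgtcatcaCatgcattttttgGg

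HMGB1P5 has 0 mismatches in this stretch and HMGB1P10 has 4. Over the coding sequence HMGB1P5 matched HMGB1 at 99.1% of 638 aligned bases. The next set shows HMGN2 (chr1:26472450-26475972, plus strand), its most counted pseudogene HMGN2P5 (chr15:29730713-29730985, plus strand), and the protein-coding relative HMGN4 (chr6:26538405-26546254, plus strand), which arose from an HMGN2 messenger.

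HMGN2: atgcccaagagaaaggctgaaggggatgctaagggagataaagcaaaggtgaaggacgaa
HMGN2P5: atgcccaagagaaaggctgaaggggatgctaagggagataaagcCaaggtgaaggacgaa
HMGN4: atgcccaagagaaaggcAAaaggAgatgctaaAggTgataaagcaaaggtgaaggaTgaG

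HMGN2P5 differs from HMGN2 at 1 of these bases and HMGN4 at 7, and over the coding sequence HMGN4 matched HMGN2 at 86.3% of 270 bases. HMGB2 (chr4:173331695-173335125, minus strand) is the contrasting case, with 1 annotated pseudogene, HMGB2P1 (chr19:1203209-1203842, plus strand), that has drifted further.

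HMGB2: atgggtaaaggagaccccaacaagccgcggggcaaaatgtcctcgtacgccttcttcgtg
HMGB2P1: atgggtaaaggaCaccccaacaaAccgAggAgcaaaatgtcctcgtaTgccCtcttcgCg

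HMGB2P1 has 7 mismatches to HMGB2 in the 60 bases and 92.2% identity over 605 aligned coding bases. HMGB1 and HMGB2 themselves share 77.0% of 627 aligned coding bases.

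Each coding sequence was then read as all of its 30-base windows, about the length of a footprint. A window was counted as shared if another annotated gene's transcript, or its reverse complement, holds it. For HMGB1 93.3% of windows were shared, with 35 of its own pseudogenes among 40 genes. The share was 87.6% for HMGN2, 73.8% for HMGN1, 66.4% for HMGB3 and 57.9% for HMGA1. It was 10.4% for HMGN3, 6.02% for HMGB2, 2.07% for HMGN4 and 0 for HMGN5. Over 19920 protein-coding genes the median share was 0, and 7.82% of them were above 90%. With windows of 100 bases the share was 56.2% for HMGB1, 73.7% for HMGN2, 11.9% for HMGN1 and 0.798% for HMGB3, and 0 for the other 5 members. The labels do not say how reads with several matches were counted, so counts of HMGB1, HMGN2, HMGN1, HMGB3 and HMGA1 are uncertain where reads could be split between a gene and its copies.

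Totals per library were 40221994 to 69240041 counts for RNA and 152556 to 1281039 for footprints, of which 23134 to 283435 fell on protein-coding genes. That was 2.12% to 40.4% of the counts of a footprint library. Small nuclear RNA genes held 6.18% to 64.8% and microRNA genes 1.18% to 71.4%. At 6 h alone the microRNA part ran from 4.67% to 71.4%. The part of this make-up in the footprint values was not tested. Values are expressed as counts per 1000000 (CPM), scaled by TMM library sizes within each assay and time point. The labels do not say that the 3 libraries of a group come from separate cultures, so p-values measure only the spread between these libraries, which may be technical. In RNA from whole cultures, fewer cells of a type and less RNA per cell cannot be told apart. Of 10 Wilms tumor markers, IGF2 was highest, with a mean of 1222 to 1797 CPM in the RNA groups, and SALL2, NCAM1 and WT1 were detected in each group, whereas EYA1 and PAX8 did not pass the filter at any time. Among 7 markers of other cell types, the leukocyte gene PTPRC and the endothelial genes PECAM1 and CDH5 were at or near 0, and COL1A1, a fibroblast collagen gene, was at 398.3 to 609.4 CPM. The 7 summed to 500.1 CPM in actD and 507.1 in DMSO at 6 h, 618.2 and 455.7 at 72 h, and 585.3 and 441.2 (named actd and named dmso) at 2 weeks. These sums are mostly COL1A1, which was higher in all named actd than in all named dmso libraries. DCN, a proteoglycan gene of fibroblasts, was at 31.8 ± 0.963 CPM in the named actd and 41.9 ± 10.9 in the named dmso libraries with overlap, and at 7.44 ± 3.10 in actD and 11.3 ± 4.82 in DMSO at 72 h, also with overlap. The part of these markers in the HMG results was not tested.

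To compare levels between members, RNA was expressed as CPM per kilobase of the annotated main transcript in the vehicle libraries. At 6 h HMGN2 was highest, at 351.0 ± 50.2 (SD, n = 3), followed by HMGN1 at 233.9 ± 29.04. HMGN3 at 71.2 ± 5.26 and HMGB2 at 66.5 ± 8.97 overlapped, and HMGB2 overlapped HMGB3 at 54.5 ± 5.27. HMGB1 was at 42.7 ± 3.50, and HMGN4 at 35.2 ± 4.34 and HMGA1 at 34.4 ± 4.80 overlapped. HMGN5 was at 0.0905 ± 0.0455, above 3.65% of 14921 coding genes that passed the filter, whereas the other 8 members stood above 89.0% or more of them. HMGN1 and HMGN2 also had the highest means at 72 h, where HMGN1 was at 241.9 ± 48.4 and HMGN2 at 161.9 ± 64.9 with overlapping libraries. The HMGN2 libraries at 72 h also overlapped those of HMGB2, at 98.8 ± 30.9, and HMGN3, at 94.9 ± 25.6. At 2 weeks HMGN1 was at 129.1 ± 10.1 and HMGN2 at 116.5 ± 5.36 in the named dmso libraries, again overlapping. HMGN5 was last at all 3 times.

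**Figure D1:**
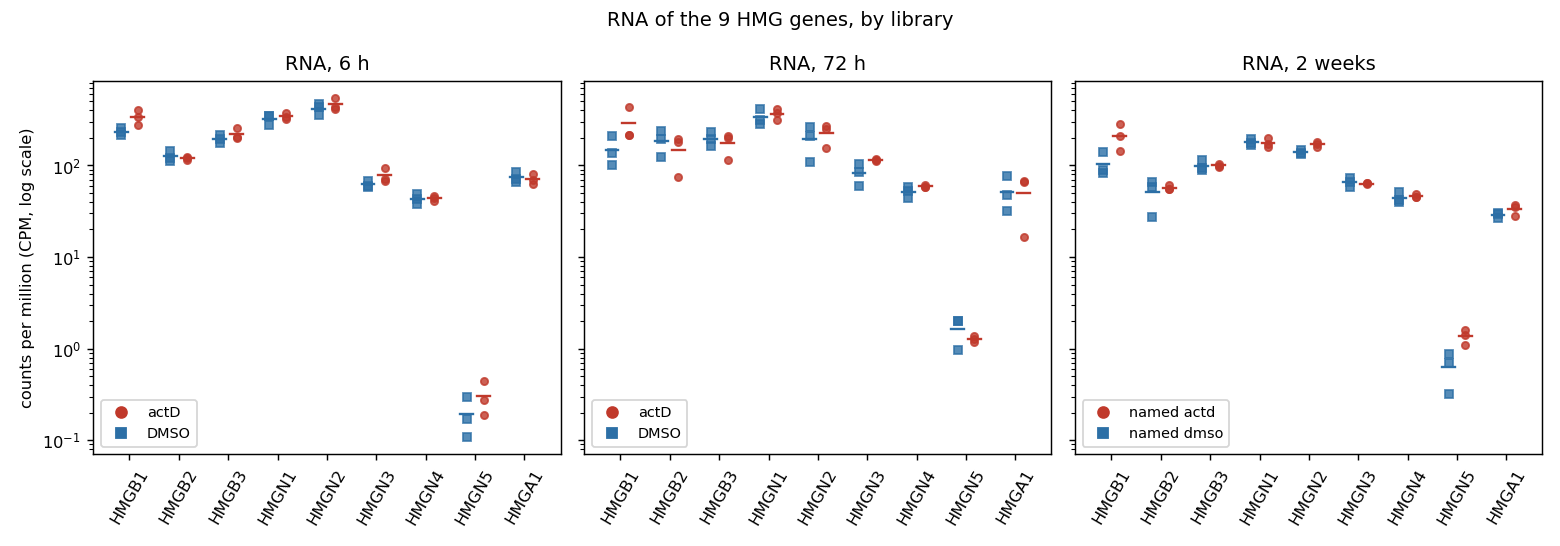
RNA of the 9 HMG genes in CPM (log axis) at 6 h, 72 h and 2 weeks; each point is 1 library, circles are actD or named actd, squares are DMSO or named dmso, and bars are means of 3 libraries. HMGB1 circles lie above all HMGB1 squares at each time, and HMGN5 lies far below the other members.

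Between the arms, HMGB1 was the member whose RNA stood apart in the same direction at all 3 times, by the library names at 2 weeks. By the titles the 2-week direction is the opposite. How many of all genes stood apart at all 3 times was not counted. The adjusted p-value (edgeR quasi-likelihood test, Benjamini-Hochberg over all genes tested) was under 0.05 for 0 of 9 members at 6 h, at 72 h and at 2 weeks, against 0%, 0.00472% and 0% of all genes. At an unadjusted p under 0.05 there was 1 member at 6 h, HMGB1, 1 at 72 h, HMGB1, and 3 at 2 weeks, HMGB1, HMGN2 and HMGN5, against 8.21%, 13.1% and 8.93% of all genes. DESeq2 called 0, 0 and 1 member, the last being HMGB1, against 197 of 22669, 608 of 21195 and 189 of 21137 genes. Members whose libraries were all higher with drug numbered 2 at 6 h, 3 at 72 h and 3 at 2 weeks, against 7.66%, 10.5% and 7.86% of all genes. None of the 9 had all its drug libraries lower, as 8.17%, 10.3% and 7.83% of all genes had. The median log2 fold change of the 9 members was 0.16 at 6 h, 0.14 at 72 h and 0.17 at 2 weeks, beside 0.02, 0.02 and -0.02 over all genes tested.

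HMGB1 encodes an abundant HMG-box protein of the nucleus. At 6 h its RNA was at 404.6, 279.5 and 339.8 CPM in actD replicates 1, 2 and 3 and at 230.3, 255.3 and 217.5 CPM in the DMSO replicates. The groups did not overlap, the lowest actD library being replicate 2. The log2 fold change was 0.54 (SE 0.16, 95% confidence interval 0.18 to 0.90), with an edgeR adjusted p of 0.464.

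At 72 h HMGB1 RNA was at 431.9, 214.4 and 216.3 CPM in actD replicates 1, 2 and 3 and at 209.8, 136.5 and 100.9 CPM in DMSO replicates 1, 2 and 3. The groups did not overlap, but actD replicates 2 and 3 lay close to DMSO replicate 1, and actD replicate 1 stood far above all others. The log2 fold change was 0.95 (SE 0.38, interval 0.07 to 1.83), with an edgeR adjusted p of 0.354, and without actD replicate 1 it was 0.52. The DMSO libraries differed among themselves by more than the distance between actD replicate 2 and DMSO replicate 1.

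At 2 weeks HMGB1 RNA was at 281.4, 143.8 and 208.7 CPM in the named actd libraries and at 89.9, 82.9 and 139.9 CPM in the named dmso libraries. The groups again did not overlap, with the named actd replicate 2 just above the named dmso replicate 3. The log2 fold change was 1.02 (SE 0.28, interval 0.38 to 1.66), with an edgeR adjusted p of 0.425, while DESeq2 gave 1.03 with an adjusted p of 0.0148. By the sample titles the same difference is -1.02. The change of HMGB1 between 6 h and 72 h, tested as a treatment-by-time interaction, was 0.39 (interval -0.56 to 1.34, edgeR adjusted p = 0.862). Of the 9 members, 0 had an adjusted p under 0.05 in this interaction test, against 0.0165% of all genes, and 0 an unadjusted p under 0.05, against 8.02%. DESeq2 called 0 of the 9, against 161 of 24251 genes.

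**Figure D2:**
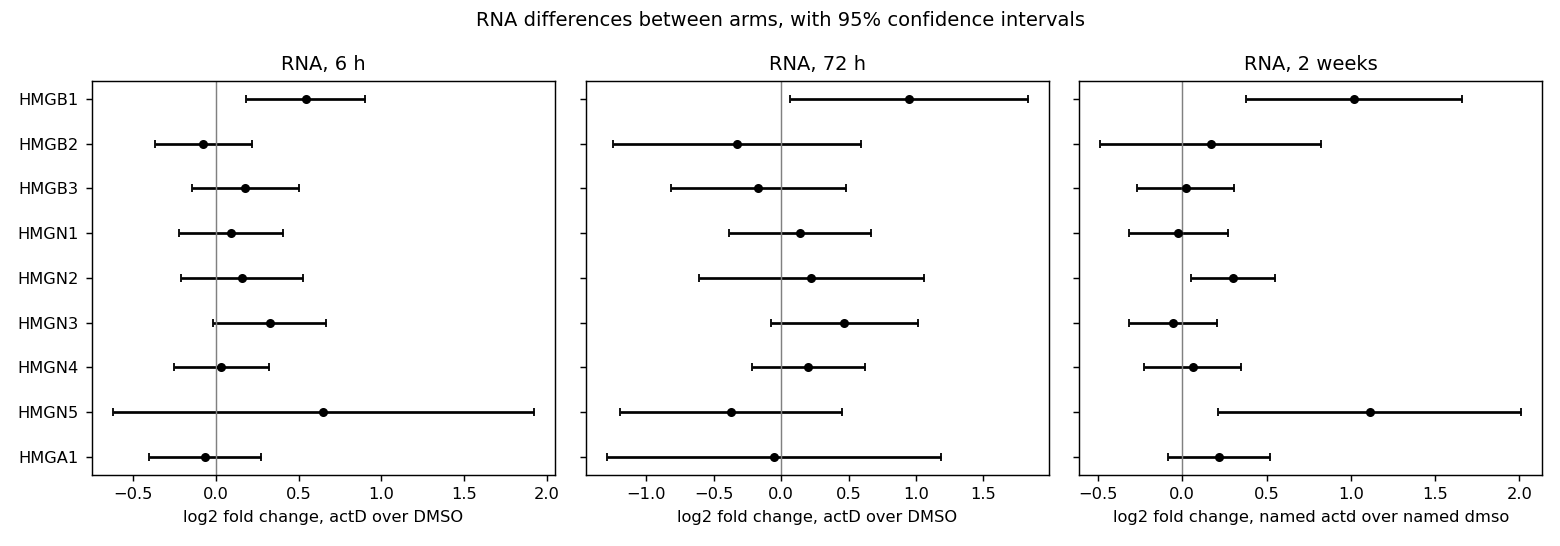
RNA log2 fold changes (actD over DMSO, at 2 weeks named actd over named dmso) of the 9 members from the edgeR fits, with 95% confidence intervals, n = 3 libraries per arm. The HMGB1 interval lies above 0 in each panel, and at 2 weeks so do those of HMGN2 and HMGN5; no adjusted p was under 0.05.

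HMGB2, a close relative found mainly in dividing cells, did not stand apart at any time. At 6 h it was at 121.3, 122.4 and 113.6 CPM in actD and 121.5, 111.1 and 144.3 CPM in DMSO, a log2 fold change of -0.08 (interval -0.37 to 0.22). At 72 h it was at 178.2, 193.2 and 74.6 CPM in actD and 239.3, 196.7 and 123.8 CPM in DMSO, with actD replicate 3 far below the other actD libraries. The log2 fold change was -0.33 (interval -1.25 to 0.59) and -0.01 without that library. At 2 weeks it was 0.17 (interval -0.48 to 0.83).

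HMGB3, which is strongly expressed in embryonic tissues, gave log2 fold changes of 0.18, -0.17 and 0.02 at the 3 times, with overlapping libraries. Its actD replicate 3 at 72 h was also low, at 113.8 CPM against 200.4 and 207.6 CPM in the other actD libraries, and without it the difference was 0.06.

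Among the nucleosome-binding HMGN genes, HMGN3 was higher in all actD libraries at 6 h and 72 h. At 6 h it was at 70.6, 68.3 and 94.3 CPM in actD and 60.1, 67.4 and 58.9 CPM in DMSO, where actD replicate 2 exceeded DMSO replicate 2 by less than the spread of the DMSO libraries. At 72 h it was at 115.2, 116.2 and 111.8 CPM in actD and 103.8, 85.2 and 59.3 CPM in DMSO. The actD libraries were close together and the DMSO libraries spread widely. The log2 fold changes were 0.32 (interval -0.02 to 0.67, edgeR adjusted p = 0.629) and 0.47 (interval -0.08 to 1.01, edgeR adjusted p = 0.448), and at 2 weeks it was -0.05 with overlapping libraries. HMGN3-AS1 overlaps HMGN3 on the other strand, and the labels do not state whether counting used the strand.

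HMGN2 RNA at 2 weeks was at 159.5, 173.3 and 180.1 CPM in the named actd and 133.3, 137.2 and 145.8 CPM in the named dmso libraries, which did not overlap. The log2 fold change was 0.30 (interval 0.05 to 0.55, edgeR adjusted p = 0.512), and 0.15 with library totals in place of TMM, a scaling that moved the median of all genes to -0.18. At 6 h and 72 h its libraries overlapped, with log2 fold changes of 0.16 and 0.22. HMGN1, the other abundant HMGN gene, gave 0.09, 0.14 and -0.02, with overlap each time.

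HMGN4 was at 58.0, 60.9 and 58.0 CPM in actD and 52.2, 44.2 and 57.7 CPM in DMSO at 72 h. Its groups did not overlap, but the gap to DMSO replicate 3 was small, and the log2 fold change was 0.20 (interval -0.22 to 0.62). HMGN5, which binds euchromatin and has a long acidic tail, had few counts, 92 over the 6 libraries at 6 h, 470 at 72 h and 312 at 2 weeks. At 2 weeks it was at 1.096, 1.397 and 1.615 CPM in the named actd and 0.698, 0.322 and 0.874 CPM in the named dmso libraries, without overlap and with a log2 fold change of 1.11 (interval 0.21 to 2.01, edgeR adjusted p = 0.512). At 72 h the value pointed the other way, -0.37, with overlapping libraries.

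HMGA1, the AT-hook gene that is high in embryonic and tumor cells, had overlapping libraries at all 3 times, with log2 fold changes of -0.07, -0.06 and 0.22. At 72 h its actD libraries were at 67.6, 65.3 and 16.6 CPM and its DMSO libraries at 32.1, 47.1 and 76.0 CPM. As for HMGB2, actD replicate 3 was the lowest, and without it the difference was 0.36.

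The RNA counted on HMGB1 was then set beside the RNA counted on its 48 pseudogenes. At 6 h the pseudogenes summed to 159.2, 167.9 and 200.8 CPM in actD and 151.2, 170.9 and 137.8 CPM in DMSO, so these groups overlapped. At 72 h the sums were 244.2, 288.7 and 186.5 CPM in actD and 313.2, 295.0 and 209.5 CPM in DMSO. At 2 weeks they were 88.4, 71.8 and 76.3 CPM in the named actd and 78.8, 68.4 and 90.4 CPM in the named dmso libraries. At no time did the pseudogene sum separate the arms in the way HMGB1 itself did.

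The pseudogene share of the summed HMGB1 counts was lower with drug in every library. It was 28.2% to 37.5% in actD and 38.8% to 40.1% in DMSO at 6 h, 36.1% to 57.4% and 59.9% to 68.4% at 72 h, and 23.9% to 33.3% and 39.3% to 46.7% at 2 weeks (named actd and named dmso). Since HMGB1 counts form part of this share, it is no separate evidence of a difference in HMGB1. Adding the pseudogene counts to HMGB1 before the fit gave log2 fold changes of 0.42 at 6 h, 0.32 at 72 h and 0.66 at 2 weeks, with unadjusted edgeR p-values of 0.0164, 0.293 and 0.0197. The summed libraries overlapped at 72 h and at 2 weeks.

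**Figure D3:**
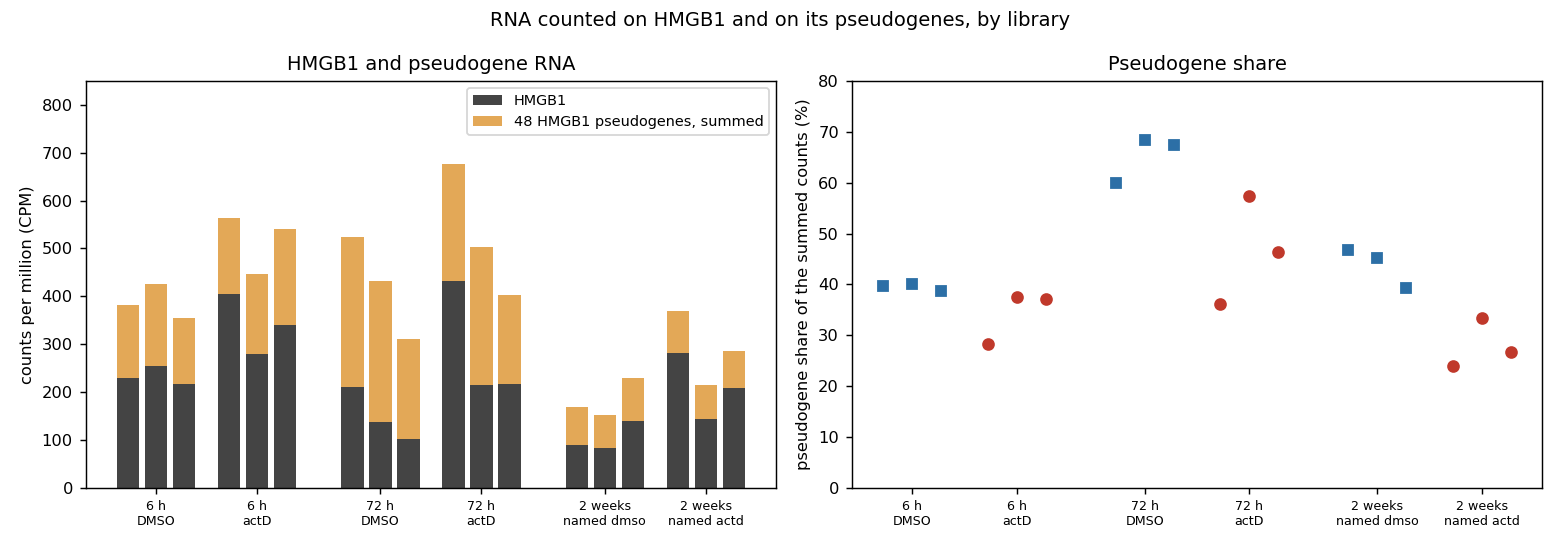
Left, CPM of HMGB1 (dark) and of its 48 pseudogenes summed (light), stacked, 1 bar per RNA library in replicate order. Right, the pseudogene share of the stacked total in percent; circles are actD or named actd and squares DMSO or named dmso, and the circles lie below the squares within each time.

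HMGB1P5 and HMGB1P6 (chr15:71164770-71165415, minus strand) carried most of these counts. HMGB1P5 was at 75.2 ± 9.62 CPM in actD and 65.9 ± 7.79 in DMSO at 6 h, and at 115.4 ± 22.3 and 134.1 ± 32.7 at 72 h (SD, n = 3). At 2 weeks it was at 33.6 ± 3.46 in the named actd and 33.4 ± 5.79 in the named dmso libraries, so the arms overlapped each time. HMGB1P1 was at 0.737 ± 0.152 CPM in DMSO at 6 h but at 18.4 ± 2.54 at 72 h. The tables of the different times carry their own count scale, and no test was made between them.

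The other families held less pseudogene signal. Of the summed counts the 36 HMGN2 pseudogenes made up between 12.2% and 15.7% (6 h), 24.2% and 33.7% (72 h), and 15.2% and 20.5% (2 weeks). HMGN2P5 led them at 6 h, at 65.5 ± 11.98 CPM in actD and 56.5 ± 1.33 in DMSO. The 31 HMGN1 pseudogenes stayed between 2.99% and 6.07% over the 18 libraries, led by HMGN1P38. Those of HMGB3 and HMGA1 held at most 4.02% and 8.28%, and the single pseudogenes of HMGB2 and HMGN3 at most 0.317% and 0.0488%. Adding pseudogene counts moved the HMGN2 log2 fold change at 2 weeks from 0.30 to 0.27.

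In the footprint libraries the members were thinly covered. The highest count of a member in a library was 55 at 6 h, 64 at 72 h and 21 at 2 weeks, and some were 0. At each time 2 of 9 members, HMGB1 and HMGB2, passed the filter on low counts. These 2 genes held 69.7% of the 1180 footprint counts of all 9 members over the 18 libraries. A count of 0 allows up to 3 counts in a library, which is 2.70 to 37.3 CPM depending on the library, for counting error only.

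HMGB1 footprint counts were 17, 7 and 13 in actD and 17, 24 and 6 in DMSO at 6 h, 26, 21 and 31 against 18, 16 and 2 at 72 h, and 8, 5 and 15 against 8, 21 and 9 at 2 weeks. In CPM the arms overlapped at each time. The log2 fold changes were 0.36 (interval -0.68 to 1.39), 0.03 (interval -0.82 to 0.88) and -0.39 (interval -1.52 to 0.74).

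HMGB2 footprint counts were 30, 18 and 39 in actD and 26, 55 and 12 in DMSO at 6 h, 64, 54 and 58 against 47, 62 and 4 at 72 h, and 9, 18 and 15 against 12, 18 and 17 at 2 weeks. These arms also overlapped in CPM, with DMSO replicate 3 at 72 h the most thinly covered. The log2 fold changes were 0.60 (interval -0.62 to 1.83), -0.31 (interval -1.52 to 0.91) and -0.19 (interval -0.98 to 0.61). Of the 2 members tested, 0 had an adjusted edgeR p under 0.05 at 6 h, 72 h or 2 weeks, against 0%, 3.79% and 0% of all genes tested, and DESeq2 called 0. An unadjusted p under 0.05 was reached by 0 of the 2 at each time, against 3.14%, 27.3% and 8.57% of all genes. Differences of any size within these intervals remain compatible with the counts at this depth, and no limit of detection was computed.

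Footprints relative to RNA, the translational efficiency, were tested for the same 2 genes. For HMGB1 the log2 difference was -0.19 at 6 h (interval -1.16 to 0.79), -0.92 at 72 h (interval -2.18 to 0.34) and -1.42 at 2 weeks (interval -2.74 to -0.09). The edgeR adjusted p-values were 0.9998, 0.484 and 0.845, and 1 of these 3, at 2 weeks, had an unadjusted p under 0.05, of 0.0378. With the 2-week RNA libraries taken by their titles that value was 0.62. With pseudogene counts added, which changed the RNA counts only, the HMGB1 value was -0.29 at 72 h and -1.05 at 2 weeks. In that setting 0 of the 2 genes had an unadjusted edgeR p under 0.05 at 2 weeks. HMGB2 gave 0.68, -0.01 and -0.36, and 0 of the 2 genes passed at any time by edgeR or DESeq2, against 0%, 1.04% and 0% of all genes by edgeR (4.63%, 15.3% and 5.27% at an unadjusted p under 0.05).

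The footprint effect was also compared between times. The log2 differences for HMGB1 were -0.19 for 72 h minus 6 h and -0.51 for 2 weeks minus 72 h, and those for HMGB2 were -0.73 and -0.01. HMGB3 and HMGN1 could be fitted in the second comparison, at -1.40 (interval -4.42 to 1.62) and -1.57 (interval -3.43 to 0.29). DESeq2 called 0 of these members, against 5 of 3012 and 10 of 3760 genes. By edgeR 0 had an adjusted p under 0.05, against 0% and 0.0532% of all genes. An unadjusted p under 0.05 was reached by 0, against 6.54% and 7.5% of all genes.

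**Figure D4:**
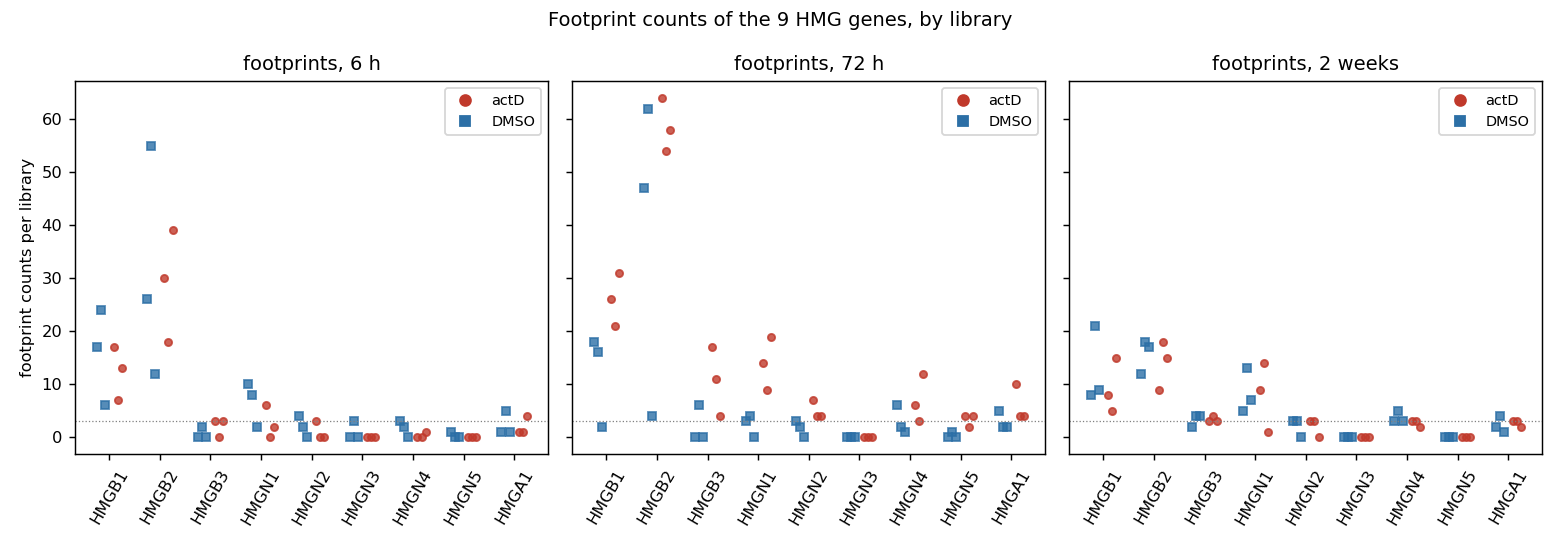
Footprint counts of the 9 members per library (linear axis) at 6 h, 72 h and 2 weeks; circles are actD, squares DMSO, and the dotted line marks 3 counts. HMGB1 and HMGB2 hold most counts, and HMGN3 and HMGN5 are at or near 0.

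The 7 members under the filter are given as counts. HMGN1 had 6, 0 and 2 footprints in actD and 10, 8 and 2 in DMSO at 6 h, and 14, 9 and 19 against 3, 4 and 0 at 72 h. HMGN5 had 4, 2 and 4 in actD and 0, 1 and 0 in DMSO at 72 h. With every gene of 10 or more summed counts kept, 8 members were tested at 72 h and 0 called, as were 0 of all 7731 genes tested. Of these, HMGN1 had a log2 fold change of 1.43 (SE 0.58, unadjusted p = 0.0394, edgeR adjusted p = 0.279) and HMGN5 of 1.92 (SE 1.11, edgeR adjusted p = 0.397). HMGN1 and HMGN5 were the 2 members whose CPM was higher in all actD libraries at 72 h, and 0 were lower, where 19.5% and 16.2% of the genes that passed the filter were. DMSO replicate 3 at 72 h was the shallowest footprint library. At 2 weeks HMGN4 was lower in all actD libraries, at 3, 3 and 2 against 3, 5 and 3 counts, and 0 members were higher, where 6.57% and 8.32% of genes that passed were. At 6 h 0 members stood apart, against 3.71% higher and 5.69% lower. HMGN1, HMGN5 and HMGN4 did not pass the filter, so these shares do not cover genes as thinly counted as they are. Among the members that passed, 0 stood apart at any time. The share among genes under the filter was not counted. HMGB3, HMGN2 and HMGA1 had at most 17, 7 and 10 counts in any library.

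HMGN3 had 3 footprint counts in 1 library, DMSO replicate 2 at 6 h, and 0 in the other 17. Its RNA was at 89.1 CPM per kilobase on average over the 18 RNA libraries. Of 440 other coding genes with at least as much RNA per kilobase, 27 (6.14%) had as few footprint counts, and the median of such genes was 306 counts. These footprint counts were not divided by coding length, and longer coding sequences can collect more. The HMGN3 coding sequence has 297 bases, and the part of length was not tested. Its coding windows were mostly its own, with 10.4% shared.

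Footprints per kilobase of coding sequence over RNA per kilobase were compared in the vehicle libraries, relative to the median of all genes with enough RNA. For HMGB1 this ratio was 8.02 at 6 h, 5.45 at 72 h and 6.63 at 2 weeks, above 95.01%, 90.6% and 96.9% of genes. HMGB2 was similar, at 10.7, 4.71 and 6.50, and HMGA1 was at 3.15, 4.47 and 3.47. HMGN2 was low at 0.242, 0.247 and 0.423, although it had the most or nearly the most RNA of the members. In vehicle RNA, pseudogenes held 38.8% to 40.1% (6 h), 59.9% to 68.4% (72 h) and 39.3% to 46.7% (2 weeks) of the summed HMGB1 counts. They have no rows in the footprint data. For HMGB2 that share was at most 0.120%. HMGB1 RNA was divided by a main transcript of 5485 bases and its footprints by 645 coding bases. The part of these points in the ratios was not tested.

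HMGB1 and HMGN2 thus lay on opposite sides of the median gene, while both shared more than 80% of their coding windows with other genes. Over all genes, those with more than 90% of windows shared had a median ratio of 0.560, 0.348 and 0.590 of the median gene at the 3 times, and those with none shared 0.976, 1.03 and 1.03. HMGN4, with 2.07% shared, was at 2.05, 2.32 and 2.53. These ratios rest on few footprint counts, at 2 weeks they use the named dmso RNA libraries, and the part of shared sequence in them was not tested.

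**Figure D5:**
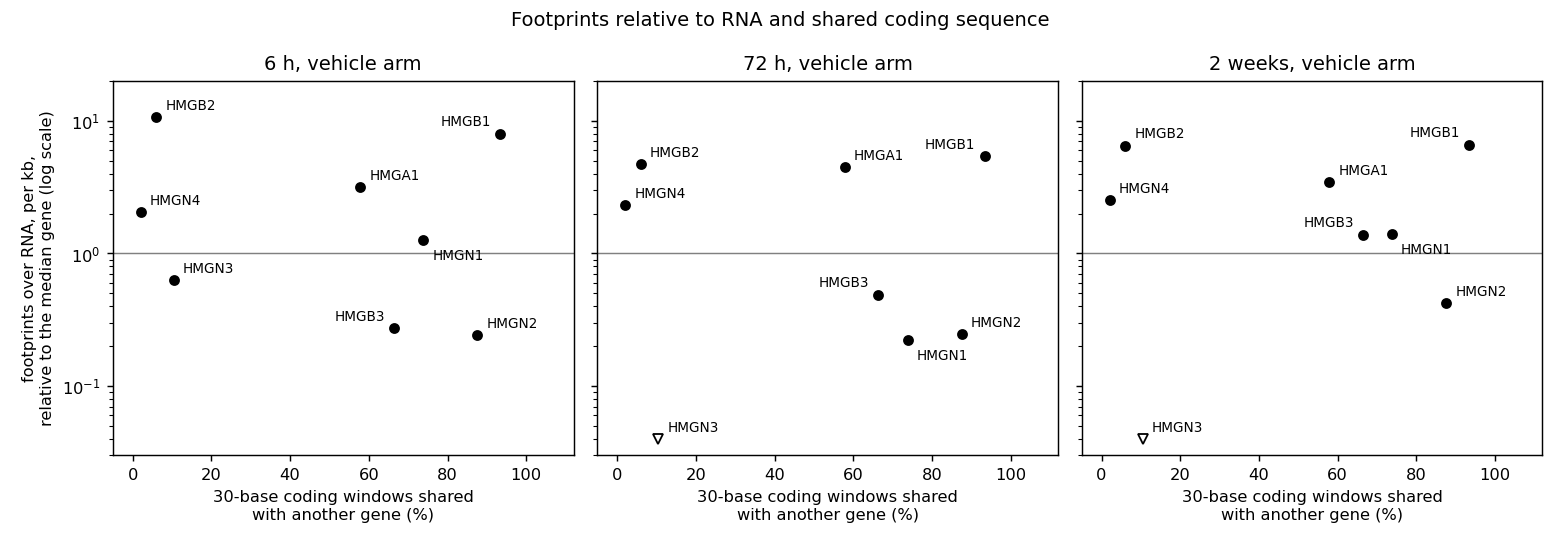
Footprints over RNA per kilobase in the vehicle libraries, relative to the median gene (log axis, line at 1), against the percentage of 30-base coding windows shared with another gene, at 6 h, 72 h and 2 weeks; each filled point is 1 member, and open triangles at the base mark HMGN3 with a ratio of 0. HMGB1 and HMGB2 lie at opposite ends of the horizontal axis with ratios of 4.71 to 10.7, and HMGN5 is left out for low RNA.

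RNA of some members varied together from library to library. After centring each time point on its own mean, Pearson's r of log2(CPM + 1) over the 18 RNA libraries was 0.793 between HMGN1 and HMGN2, 0.723 between HMGN2 and HMGN3 and 0.699 between HMGB2 and HMGB3. It was 0.267 between HMGB1 and HMGB2 and -0.266 between HMGN3 and HMGA1. Pairs within a family ranged widely: HMGN5 had r of -0.137 with HMGN1 and -0.218 with HMGN3, and HMGN4 had 0.136 with HMGN2. These are descriptions over libraries that share depth, scaling and, in the HMG genes, sequence.

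By the same measure, among 9218 coding genes with a mean of at least 10 CPM, those nearest to HMGN2 were MARCKSL1 (0.971), CDKN3 (0.951) and SNRNP25 (0.945). Nearest to HMGB3 were HIST1H1D (0.940), ASF1B (0.939) and PEBP1 (0.935), of which HIST1H1D encodes a linker histone and ASF1B a histone chaperone. HMGB1 had weaker neighbours, CHCHD7 (0.862), CENPL (0.849) and LRRC8C (0.831), as had HMGB2 with TOMM5 (0.858), SPC24 (0.840) and TAF4 (0.823) and HMGN1 with SVIP (0.851), MRPS36 (0.845) and CKS2 (0.843). HMGN3 was nearest to CCNJ (0.925), EIF4G2 (0.906) and SIX4 (0.905), HMGN4 to PITHD1 (0.951), STARD3NL (0.909) and SMIM10 (0.896), and HMGA1 to PODXL2 (0.890), SOCS7 (0.875) and RGS14 (0.871). HMGN5, at 0.905 CPM on average, was nearest to FBXW4 (0.760), LSM14A (0.740) and PAIP2 (0.733).

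Genes that work with HMG proteins were read from 5 lists. Of 21 other HMG and HMG-box genes, 19, 19 and 18 could be tested in RNA at 6 h, 72 h and 2 weeks, and 0 had an adjusted edgeR p under 0.05, with median log2 fold changes of -0.12, -0.17 and -0.02. HMGA2, the second AT-hook gene, was the highest of them, at 338.4 ± 148.1 CPM in actD and 382.4 ± 36.5 in DMSO at 6 h (SD, n = 3). Of 7 linker histones, which compete with HMGN proteins for nucleosomes, 7, 6 and 7 were tested and 0 called, with medians of -0.06, -0.25 and -0.17. HIST1H1E was the highest, at 772.4 ± 126.0 and 807.0 ± 187.3 CPM at 6 h.

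Of 6 genes of the SET complex, an endoplasmic reticulum-associated assembly that includes HMGB2, all 6 were tested each time and 0 called, with medians of 0.00, -0.25 and 0.03. SET itself was the highest, at 1004 ± 108.7 and 942.7 ± 129.1 CPM at 6 h. Of 8 genes for receptors and partners of HMGB1 outside the cell, 7, 5 and 4 were tested and 0 called. CD24 was the highest, at 71.8 ± 4.09 and 58.0 ± 21.4 CPM at 6 h, and the receptor gene AGER was at 1.98 ± 0.402 and 1.71 ± 0.459.

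Of 9 genes for enzymes that modify HMG proteins, all 9 were tested in RNA and 0 called, with medians of -0.04, -0.25 and -0.04. PARP1 encodes an enzyme that adds ADP-ribose to chromatin proteins. It had the highest mean of the 9 genes over both arms together at 6 h and 2 weeks, though not within the actD libraries alone. Of 68 listed genes outside the members, only PARP1 had groups apart in the same direction at all 3 times, by the library names at 2 weeks. By the titles its direction at 2 weeks is the opposite. At single times 8.17%, 10.3% and 7.83% of all genes were lower in all drug libraries. The share of all genes apart at all 3 times was not counted. PARP1 was at 187.6 ± 62.7 CPM in actD and 297.0 ± 4.94 in DMSO at 6 h, and at 35.1 ± 3.71 and 169.7 ± 117.4 at 72 h. At 2 weeks it was at 149.9 ± 23.4 in the named actd and 225.6 ± 24.7 in the named dmso libraries. The log2 fold changes were -0.66, -2.27 and -0.59, with edgeR adjusted p-values of 0.560, 0.232 and 0.411, so this lower level did not pass the test either.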

How the data were processed

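Total RNA and ribosome footprints of WiT49 cells were analysed in 36 libraries. The authors deposited 1 table per assay and time point with whole-number estimated counts (expected counts) per gene, made with HISAT2 and StringTie on hg38 per the submitters' processing notes; versions, annotation, strand use and the handling of reads with several matches are not given in the sources used here. In the 6 h and 2-week RNA tables a value of 3 was 1.59 and 1.58 times as frequent as 2. This could occur if 1 fragment was worth more than 1 count there, which was not tested. Of the identifiers, 99.4% matched GENCODE release 29 without their version number. The test was edgeR's quasi-likelihood F test (version 4.0.16, in R 4.3.3) with TMM, filterByExpr and Benjamini-Hochberg adjustment at 0.05 over all genes of a table, two-sided, and rounding changed nothing. Translational efficiency was the assay-by-treatment interaction. DESeq2 1.42.0 was an alternative. The fits were tested on simulated data. The members and lists were chosen with earlier results of these data known. Named genes were all members, each pseudogene family by its sum and its most counted pseudogenes, list genes that were called or among the 2 highest of their list, and the 3 nearest coding genes per member. HMGB1P1 was named after its values were seen.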

Additional observations from a re-analysis of the deposited data

How the results depend on the processing

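Across 188 alternative fits of the 12 comparisons (DESeq2, library totals, a filter at a sum of 10 counts, protein-coding genes alone, pseudogene counts summed, 1 fit over 3 time points, a replicate block, the titles of the 2-week RNA libraries, and each library left out), 1 gave a called member: DESeq2 called 1, HMGB1, in RNA at 2 weeks against 0 by edgeR. The count of called members was 0 in each comparison when any 1 library was left out. In these leave-one-out fits the RNA log2 fold change of HMGB1 had its lowest and highest values at 0.40 and 0.67 for 6 h, 0.52 and 1.26 for 72 h, and 0.77 and 1.296 for 2 weeks. Of 817 alternative values of the members' log2 differences, 84 had the opposite sign to the reported one, 61 of 450 on leaving out a library, 10 of 11 under the titles and 6 of 54 with library totals. Library totals moved the median log2 fold change of all genes from -0.02 to -0.18 in RNA at 2 weeks and from 0.11 to -0.61 in footprints at 6 h. The count of genes called over the whole table also moved. In RNA it was 0 by edgeR and 197 by DESeq2 at 6 h, 1 and 608 at 72 h, and 0 and 189 at 2 weeks, and 1 fit over 3 time points called 1212 genes at 72 h. In footprints at 72 h, 92 genes were called, against 0 with the filter at a sum of 10 counts, 0 with the replicate block, 7 with library totals, 182 among protein-coding genes alone and 0 to 282 on leaving out a library (0 when replicate 1 or replicate 2 of either arm was dropped, 55 when DMSO replicate 3 was and 282 when actD replicate 3 was). The cause was not tested.

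The replicate block gave 0 called members in each comparison. It was not shown that the numbers pair the arms. Same-numbered actD and DMSO libraries had deviations whose correlation in RNA lay between -0.15 and -0.04 (6 h), 0.07 and 0.26 (72 h), and -0.03 and 0.19 (2 weeks). In footprints it lay between -0.73 and -0.06, -0.06 and 0.04, and -0.03 and 0.37. Between same-numbered RNA and footprint libraries it was 0.18 to 0.42 for actD at 72 h and 0.005 to 0.22 in the other groups. With the block the HMGB1 RNA log2 fold change was 0.53, 0.93 and 1.00.

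Footprint depth limits these genes. At most 64 counts of a member fell in 1 library, and 7 of 9 members did not pass the edgeR filter at any single time. With the filter at a sum of 10 counts, 4 members were tested at 6 h, 8 at 72 h and 7 at 2 weeks, and 0 were called. The 1 fit over 3 time points tested 4 members at each time and called 0.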
